A study of Mus musculus with 13 samples.

Results

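PERK-null mouse embryonic fibroblasts (MEFs) were compared directly with WT MEFs late in endoplasmic reticulum (ER) stress, at 5 h and 8 h of thapsigargin (Tg, 1 μM), an inhibitor of the ER calcium pump. The 4 libraries compared were PERK WT and PERK −/− at each of these times, out of 13 in the series, and the genes compared were the 10432 of 22406 in the tables whose mean level over the 10 MEF libraries was at least 2 TPM. TPM is the density of ribosome footprints on the coding sequence of a gene, corrected for length and scaled to the same total in every library. The untreated and 2 h libraries of both genotypes, which the comparison did not use, and NIH3T3 fibroblasts (a mouse line with its own PERK, control and 7 h of 200 nM Tg) were set beside it. Cells were harvested without cycloheximide, and each condition was 1 library, so that no value has a replicate error. No test between genotypes was made, since 5 h and 8 h are different conditions and a fit over them would take them as replicates. The loss of PERK cannot be told apart from any other difference between the PERK −/− and WT lines.

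PERK (gene Eif2ak3) is an ER membrane kinase which, when unfolded proteins accumulate in the ER lumen, phosphorylates eIF2α. Initiation then slows on most mRNAs, while a few mRNAs with short upstream reading frames, such as that of the transcription factor ATF4, are translated better. ATF4 and its target CHOP (Ddit3) in turn activate genes of amino acid supply and of the stress response, next to the ER stress branches of IRE1-XBP1 and ATF6, which serve mainly chaperones and ER-associated degradation.

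Total expected counts were 5617552 (5 h) and 11178364 (8 h) in WT and 8035736 and 7446112 in PERK −/− MEFs. The WT libraries of 5 h and 8 h were nearly alike. Over the 7732 genes with at least 200 counts in both together, the chi-square of their counts had a median of 0.664 and a mean of 1.99, where counting error alone gives 0.455 and 1, and only 15 of the expressed genes differed 2-fold between them. The PERK −/− libraries of 5 h and 8 h differed far more, with a median chi-square of 7.21 and 720 genes 2-fold apart. A difference seen at both times thus rests on PERK −/− libraries that were unlike each other and on WT libraries that were almost 1 measurement, and whether these came from separate cultures is not given in the sources used here. Of the 14 fibroblast markers 12 were expressed, with summed levels of 5577 to 6153 TPM in the 4 late libraries, whereas the 10 macrophage and leukocyte markers summed to at most 11.4 TPM and 7 of them had no count in any late library. Among the 10 endothelial markers 3 were expressed, and 5 had no late count. Flt1 was at 31.9 and 31.1 TPM in WT and at 4.75 and 8.49 TPM in PERK −/− MEFs. It does not stand for the list. The median late log2 difference (PERK −/− over WT) of the 3 was 0 with values under 4 TPM raised to 4. With a floor of 1 TPM it was 0.56. In such bulk samples fewer cells of a type and less RNA per cell cannot be told apart. The Y-linked gene Ddx3y was at 39.6 and 36.4 TPM in WT and at 0.58 and 0.48 TPM in PERK −/− MEFs, and 3 of the 4 Y-linked genes were called lower by the rule given below.

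The deleted gene itself was read in all libraries. Eif2ak3 (chr6:70844484-70905241, GRCm38.p6) had 187 and 365 expected counts in WT at 5 h and 8 h, which is 33.3 and 32.7 CPM (counts scaled to the library total), and 106 and 142 in PERK −/− MEFs, which is 13.2 and 19.1 CPM. Its TPM did not show this, with 14.0 and 15.7 in WT against 14.9 and 17.2 in PERK −/− MEFs. The counts were thus lower in PERK −/− MEFs and the length-corrected values were not, and neither falls to 0. Which exons were removed is not given in the sources used here, and footprints that remain outside a deleted stretch would still be counted.

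A gene was called where PERK −/− and WT differed at least 2-fold in the same direction at both 5 h and 8 h, after values under 4 TPM were raised to 4. By this rule 356 genes (3.41% of 10432) were lower and 511 (4.9%) were higher in PERK −/− MEFs. With expected counts scaled by TMM factors there were 462 lower and 452 higher, and with DESeq2 size factors 457 and 428, so that which direction was the more frequent depends on the scaling. At 5 h alone 780 genes (7.48%) were lower and 891 (8.54%) higher, and at 8 h alone 586 (5.62%) and 1051 (10.1%). Across all genes the median log2 difference was 0.01 at 5 h and 0.09 at 8 h. The 95% interval of the counts, which covers counting error only, excluded 0 at both times for 354 of the 356 and 499 of the 511 genes. With both late WT libraries averaged into 1 value, 368 genes were lower and 522 higher. In the genotype with the lower level both late values were under the floor of 4 TPM for 54 of the lower and 87 of the higher genes, whose fold differences depend on that floor.

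**Figure D1:**
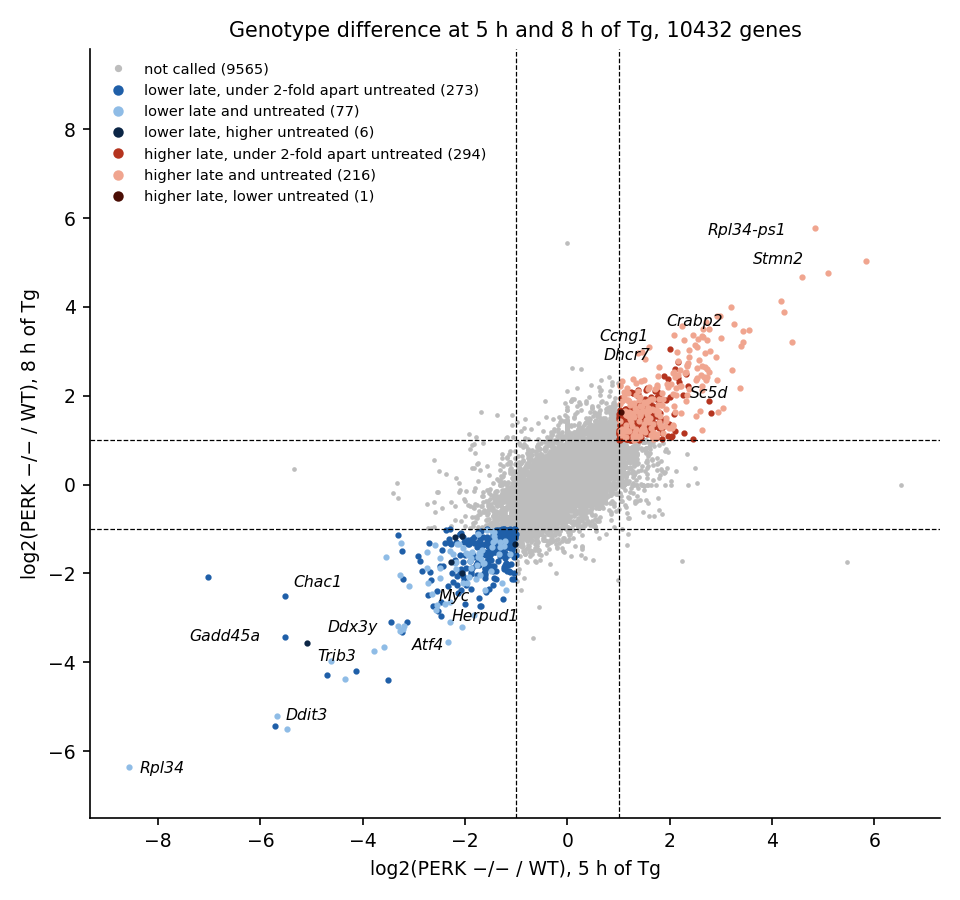
Log2 ratio of PERK −/− over WT at 5 h (x axis) and at 8 h (y axis) of Tg for the 10432 expressed genes, with TPM values under 4 raised to 4. Dashed lines mark 2-fold, and coloured points are the 356 genes lower and 511 higher at both times, split by their difference in untreated cells. Ddit3, Atf4 and Trib3 lie far down the lower left, while Sc5d, Dhcr7 and Ccng1 are among the genes higher in PERK −/− MEFs.

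Part of this difference was there before any stress. Of the 356 lower genes, 77 (21.6%) were also at least 2-fold lower in untreated PERK −/− MEFs, where 1.97% of all genes were, 6 were at least 2-fold higher and 273 were less than 2-fold apart. Of the 511 higher genes, 216 (42.3%) were already higher untreated, against 6.04% of all genes, 1 was lower and 294 were less than 2-fold apart. At 2 h of Tg, 266 of the lower genes (74.7%) were already lower, against 9.96% of all genes, and 241 of the higher genes (47.2%) were already higher, against 6.36%. The 273 genes that were lower only late were, in the median, 0.97 higher than control on the log2 scale in WT at 5 h and 0.99 at 8 h, and in PERK −/− MEFs their medians were -0.30 and -0.20. The 294 that were higher only late had medians of -0.68 and -0.66 in WT and of 0.31 and 0.39 in PERK −/− MEFs. In both late-only groups the median distance from the own control was larger in WT than in PERK −/− MEFs. The same late values chose these groups, and the late WT libraries were nearly alike, so that the rule can favour genes that moved in WT. Which genotype changed more was not tested.

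**Figure D2:**
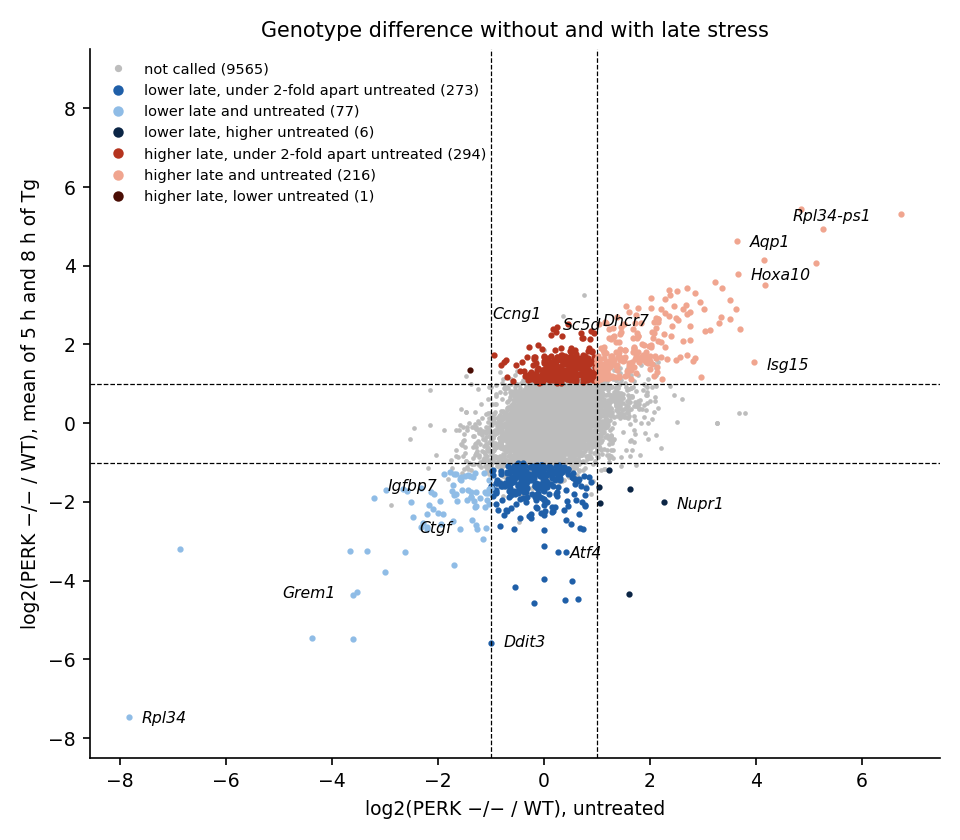
Log2 ratio of PERK −/− over WT in untreated cells (x axis) and its mean over 5 h and 8 h of Tg (y axis) for the 10432 expressed genes, coloured by call, with dashed lines at 2-fold. Atf4, Sc5d and Dhcr7 lie between the vertical lines, where untreated cells were less than 2-fold apart, while Grem1, Ctgf, Hoxa10 and Isg15 lie outside them.

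The factors of the PERK-ATF4-CHOP axis held the most lower genes among the 40 lists examined. Of the 26 genes in this list, all expressed, 19 were lower and none was higher at both times, beside 3.41% and 4.9% of all genes. Their median log2 difference was -2.17 at 5 h and -1.75 at 8 h, against 0.22 untreated. Atf4 (chr15:80255184-80257545), the transcription factor on which the axis turns, stood at 34.5 TPM in untreated WT and 569 and 576 TPM at 5 h and 8 h, and in PERK −/− MEFs at 41.4, 60.2 and 58.2 TPM, so that it was 9.45-fold and 9.89-fold lower late. Ddit3 (chr10:127290793-127296291), which encodes CHOP, stood at 13.8, 564 and 580 TPM in WT and at 6.91, 10.8 and 13.4 TPM in PERK −/− MEFs, which is 52.3-fold and 43.4-fold lower late and just under 2-fold lower untreated. Both genes were called by these late values, so that the gap between the genotypes late is no added result.

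Known targets of both factors were among the genes with the largest differences. Trib3, a pseudokinase that restrains ATF4 and CHOP, was at 181 and 183 TPM in WT and at 5.30 and 15.5 TPM in PERK −/− MEFs, although it was the higher of the 2 in untreated PERK −/− MEFs (12.5 against 4.12 TPM). Ppp1r15a, or GADD34, which directs a phosphatase to eIF2α, was at 110 and 117 TPM in WT and at 6.27 and 6.44 TPM in PERK −/− MEFs, 17.5-fold and 18.2-fold apart. Atf5, a bZIP factor, was at 100 and 117 TPM in WT and 8.85 and 5.58 TPM in PERK −/− MEFs. These genes were named for the size of their late differences, so that the gap between late values follows from that choice. Chac1, which degrades glutathione, was at 184 and 186 TPM in WT but at 3.86 TPM at 5 h and 32.9 TPM at 8 h in PERK −/− MEFs, so that its difference shrank from 46.1-fold, with the 5 h value raised to 4 TPM, to 5.66-fold between the times. Gadd45a, a growth arrest gene, stood at 184 and 174 TPM in WT and 1.10 and 16.2 TPM in PERK −/− MEFs. For Chac1 and Gadd45a the PERK −/− value was thus much lower at 5 h than at 8 h.

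Herpud1, an ER membrane protein of ER-associated degradation, was 5.52-fold and 6.24-fold lower (534 and 535 against 96.7 and 85.8 TPM). Its level in PERK −/− MEFs was nevertheless above the 36.5 TPM of their control. Acot2, a mitochondrial acyl-CoA thioesterase outside the list, was at 103 and 123 TPM in WT and 1.18 and 6.35 TPM in PERK −/− MEFs. Of the list's genes 7 were not called. Cebpg and Ddit4 were lower at both times but under 2-fold at 8 h (log2 differences of -0.52 and -0.94), and Tnfrsf10b, a death receptor, was the higher in PERK −/− MEFs (90.9 and 126 against 51.4 and 49.5 TPM).

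**Figure D3:**
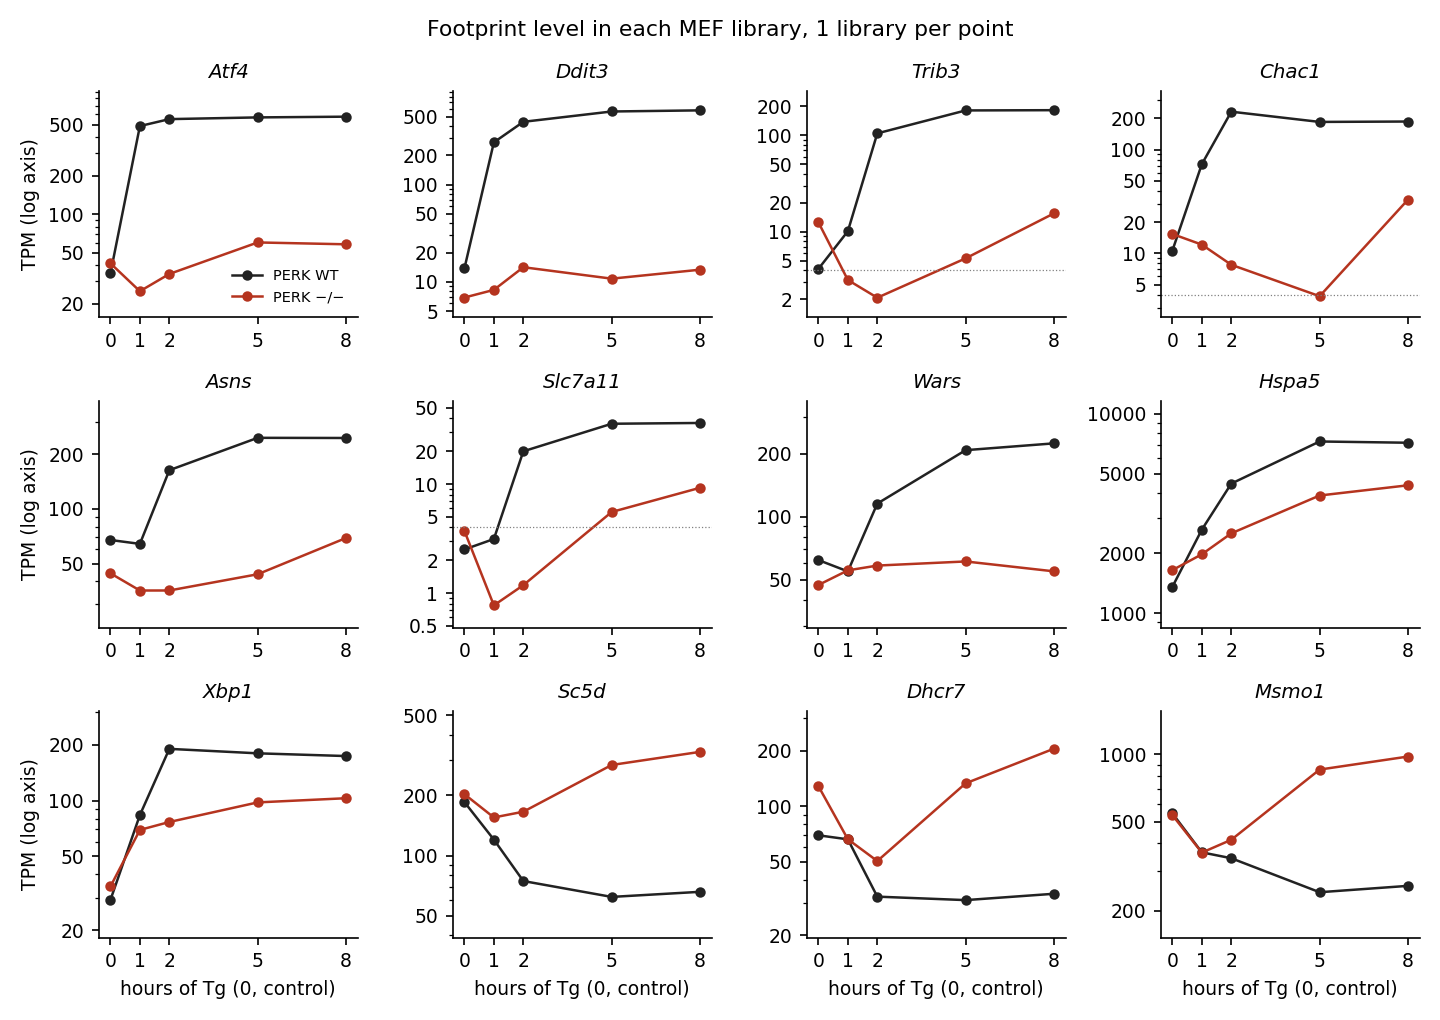
TPM (log axes) of 12 genes in WT (black) and PERK −/− MEFs (red) at 0 (control), 1, 2, 5 and 8 h of Tg, 1 library per point, with a dotted line at 4 TPM where the axis reaches near it. The 1 h WT library also held reads of genes that mark the PERK −/− line, at a median of 28.7% of their 1 h PERK −/− level, so that its points are less certain. Atf4, Ddit3, Trib3, Chac1, Asns, Slc7a11 and Wars are far higher in late WT, Hspa5 and Xbp1 are higher in both genotypes than in their controls, and Sc5d, Dhcr7 and Msmo1 are higher in late PERK −/− MEFs.

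Many genes that supply amino acids were lower in PERK −/− MEFs. Of 21 expressed enzymes of serine, one-carbon and non-essential amino acid synthesis 12 were lower and none higher, beside 3.41% and 4.9% of all genes. Their median differences were -1.20 and -1.08 (-0.16 untreated). Phosphoserine phosphatase Psph was at 373 and 380 TPM in WT and 88.5 and 102 TPM in PERK −/− MEFs. Asparagine synthetase Asns was at 246 and 246 TPM against 43.7 and 69.3 TPM, 5.63-fold and 3.55-fold lower. Cth, which makes cysteine from cystathionine, was at 79.5 and 91.1 against 11.1 and 23.6 TPM. These genes were called by their late values, while untreated cells, which the rule did not use, were less than 2-fold apart. The mitochondrial serine hydroxymethyltransferase Shmt2 was at 578 and 651 against 159 and 178 TPM, while the cytosolic Shmt1 differed less (57.9 and 54.6 against 34.1 and 26.1 TPM) and was not called. At the edge of the rule, Mthfd1l lay just inside (log2 differences of -1.04 and -1.08) and Psat1 just outside (-1.22 and -0.99).

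Among the enzymes that charge tRNAs, the cytosolic and mitochondrial sets differed in their counts. Of 20 cytosolic aminoacyl-tRNA synthetases 11 were lower (Wars, Lars, Tars, Nars, Eprs, Yars, Aars, Iars, Sars, Vars and Gars) and none was higher. Of all genes 3.41% were lower and 4.9% higher. The medians of the cytosolic set were -1.20 and -1.06 (-0.11 untreated). Of 17 mitochondrial synthetases 1 was lower, with medians of -0.24 and 0.01. The difference between the sets was not tested. Wars, the tryptophanyl enzyme, was 3.41-fold and 4.10-fold lower (209 and 225 against 61.2 and 54.9 TPM). Hars, Qars and Dars lay near no difference, with Hars at 175 and 180 TPM in WT and 172 and 173 TPM in PERK −/− MEFs.

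Of 17 amino acid transporters 6 were lower and 1 was higher, beside 3.41% and 4.9% of all genes. Their median log2 differences were -0.56 at 5 h and -0.49 at 8 h (0 untreated). The intervals of these medians over the genes, -1.67 to 0.18 and -1.29 to 0.45, included 0 at both times. At 5 h 10 members were below 0 and 6 above, and at 8 h 9 were below and 8 above. The cystine carrier Slc7a11 was at 35.8 and 36.4 TPM in WT and 5.54 and 9.24 TPM in PERK −/− MEFs. The neutral amino acid carrier Slc7a5 was at 489 and 501 against 169 and 194 TPM, and Slc7a1, Slc7a3, Slc6a9 and Slc1a4 were also lower, although Slc6a9 was the higher in untreated PERK −/− MEFs. Slc3a2, the partner chain of Slc7a5 and Slc7a11, was 2.95-fold lower at 5 h (478 against 1410 TPM) but at 1123 TPM at 8 h against 1572 TPM in WT, so that it was not called. The proton-coupled lysosomal carrier Slc36a1 was the higher in PERK −/− MEFs (20.3 and 15.6 against 7.18 and 6.86 TPM). Slc38a2, a neutral amino acid carrier, was not called, with 709 and 699 TPM in WT and 923 and 1158 TPM in PERK −/− MEFs.

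The promoters of these genes were read for the C/EBP-ATF response element, TGATGNAA on either strand, to which ATF4 and CHOP bind with C/EBP partners. RefSeq windows from 250 bases before to 50 bases after the start site (GRCm38.p6) were matched by symbol for 8045 of the 10432 genes. The letters occurred in the windows of 21 of 189 genes lower only late (11.1%), of 1 of 213 higher only late (0.469%) and of 174 of 7422 genes not called (2.34%). For genes already different untreated the count was 3 of 48 lower genes (6.25%) and 7 of 166 higher genes (4.22%), both above the share of genes not called. In the 4 lists above they occurred in 16 of 38 genes that were called lower (42.1%) and in 1 of 22 that were not (4.55%). Among all 27025 genes with a window the share was 4.51%. The genes of the 4 lists that were called lower are in large part also genes lower only late. The shares of 42.1% and 11.1% are thus not separate results, and lower genes outside the lists were not counted apart. The following stretches, 5′ to 3′ on the strand of the gene and all upstream of the start site, show the match in capitals for 6 genes of different roles that were lower in late PERK −/− MEFs.
Atf3 (chr1:191183420-191183459, minus): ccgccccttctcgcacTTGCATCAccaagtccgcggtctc
Chac1 (chr2:119351033-119351072, plus): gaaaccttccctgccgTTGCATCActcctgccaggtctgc
Herpud1 (chr8:94386301-94386340, plus): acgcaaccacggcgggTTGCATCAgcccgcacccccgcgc
Asns (chr6:7693210-7693248, minus): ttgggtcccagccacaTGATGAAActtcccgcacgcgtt
Slc7a11 (chr3:50443656-50443695, minus): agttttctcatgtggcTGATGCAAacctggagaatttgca
Aars (chr8:111033714-111033753, plus): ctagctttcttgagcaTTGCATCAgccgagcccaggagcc
The marked match began 110 bases before the start site in Atf3, 193 in Chac1, 112 in Herpud1 and Aars, 66 in Slc7a11 and 23 in Asns. Slc7a11 held a further match on the opposite strand, 47 bases before the start site, where the printed stretch ends. It is not marked. A match describes the letters and is not a measured binding site.

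Few genes of the other ER stress branches and of their targets were called, beside 3.41% of all genes lower and 4.9% higher. None of the 10 UPR sensors and ER membrane bZIP factors was called, with median log2 differences of -0.37 at 5 h and -0.21 at 8 h (-0.06 untreated). Xbp1 (chr11:5520641-5525993), the transcript spliced by IRE1, was at 29.2 TPM in untreated WT and 180 and 174 TPM late, and at 34.5, 97.7 and 103 TPM in PERK −/− MEFs, 1.84-fold and 1.69-fold lower. Of 20 expressed ER chaperones none was lower and 1, Dnajc10, was higher, with medians of 0.15 and 0.50 (0.24 untreated). Hspa5 (chr2:34772090-34776529), the main lumenal chaperone BiP, stood at 7253 and 7149 TPM in WT and at 3890 and 4376 TPM in PERK −/− MEFs, against controls of 1357 and 1646 TPM, so that it was higher late in both genotypes and 1.86-fold and 1.63-fold lower in PERK −/− MEFs. Hsp90b1 differed the other way, at 2234 and 2204 TPM in WT and 3213 and 3875 TPM in PERK −/− MEFs. Of 24 genes of ER-associated degradation 1, Herpud1, was lower and none was higher, with medians of 0.08 and 0.39 (0.30 untreated). In lists of this size such counts lie near the shares of all genes.

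The ER stress element is CCAAT followed after 9 bases by CCACG on either strand, which ATF6 and XBP1 bind with NF-Y. It occurred in the windows of 6 of 15 chaperone genes with a promoter (40.0%), beside 15 of 8045 expressed genes (0.186%) and 0.137% of all genes. None of the 20 expressed chaperones was called lower, with or without it. No gene called lower or higher held it, beside 15 of 7422 genes not called (0.202%). At so low a share, the lack of a match among 189 genes lower only late and 213 higher only late shows no difference from other genes. The stretches of 3 chaperone genes are shown beside those above, the match in capitals.
Hspa5 (chr2:34772013-34772055, plus): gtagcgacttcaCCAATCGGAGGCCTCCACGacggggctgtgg
Dnajc3 (chr14:118937815-118937857, plus): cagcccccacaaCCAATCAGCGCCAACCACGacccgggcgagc
Canx (chr11:50325788-50325830, minus): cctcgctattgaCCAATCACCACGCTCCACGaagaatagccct

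Sterol synthesis was the list with the most genes higher in PERK −/− MEFs among the 40. Of its 24 genes, all expressed, 12 were higher and none was lower, beside 4.9% and 3.41% of all genes. All 24 had a positive difference at both times, with medians of 0.97 at 5 h and 1.52 at 8 h (0.25 untreated). Sc5d (chr9:42251592-42264300), sterol-C5-desaturase, was at 185 TPM in untreated WT, 62.2 and 65.9 TPM late, and at 202, 283 and 329 TPM in PERK −/− MEFs, 4.55-fold and 4.99-fold higher late. Dhcr7, which makes cholesterol from its last precursor, was at 31.0 and 33.6 TPM in WT and 133 and 205 TPM in PERK −/− MEFs. The methylsterol oxidase Msmo1 was at 242 and 258 against 856 and 979 TPM. Nsdhl, Cyp51, Hsd17b7, Hmgcs1, Insig1, Sqle, Srebf2 and Fdft1 were also among the 12. The whole list had a median of -0.93 and -0.83 against control in WT and of 0.03 and 0.40 in PERK −/− MEFs. In the 16 genes of the list with a window, the sterol regulatory element TCACNCCAC, on either strand, occurred in 1 (Hmgcs1), beside 1.42% of expressed genes. None of the 3 motifs searched contains another.

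For further lists of secretory and lysosomal machinery the medians were higher in PERK −/− MEFs by less than 2-fold. Their calls stand beside 4.9% of all genes higher and 3.41% lower. Lists of cargo were mixed, with medians of -0.36 and -0.31 for collagen chains and -0.12 and -0.31 for secreted matrix genes. Cytokines and chemokines were at -0.10 and -0.21, and integrins and growth factor receptors at 0.12 and 0.08. Of 31 genes of the translocon, signal peptidase and oligosaccharyltransferase 1, Tusc3, was higher and none lower, with medians of 0.39 and 0.65 (0.12 untreated). Of 20 disulfide isomerases and oxidoreductases 2 were higher, Gpx7 and Erp44, with medians of 0.45 and 0.77 (0.23 untreated). The isomerase P4hb was at 1244 and 1274 TPM in WT and 1761 and 2560 TPM in PERK −/− MEFs, just over 2-fold apart at 8 h only. Of 36 lysosomal genes 4 were higher, Ctsk, Gla and Asah1 among them, but their median of 0.38 and 0.78 stood beside 0.55 in untreated cells. None of 27 genes of the COPII and COPI coats was called, with medians of 0.07 and 0.32 (0.21 untreated). A hydrophobic N terminus, here a stretch of 8 residues with a mean hydropathy of at least 2.2 within the first 30, was coded by 150 of 489 higher genes with a sequence (30.7%), 65 of 339 lower genes (19.2%) and 1670 of 9958 expressed genes (16.8%). Among genes that were less than 2-fold apart untreated the shares were 27.2% and 15.7%, and among those already different untreated 35.1% and 33.3%. Median GC content of the coding sequence was 49.8% in the higher genes, 57.4% in the lower genes and 52.8% in all. The part of GC content in the difference was not tested beyond the removal of its trend, after which 264 of the 356 lower and 380 of the 511 higher genes were still called, among 302 lower and 432 higher of the 10023 genes with a sequence.

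**Figure D4:**
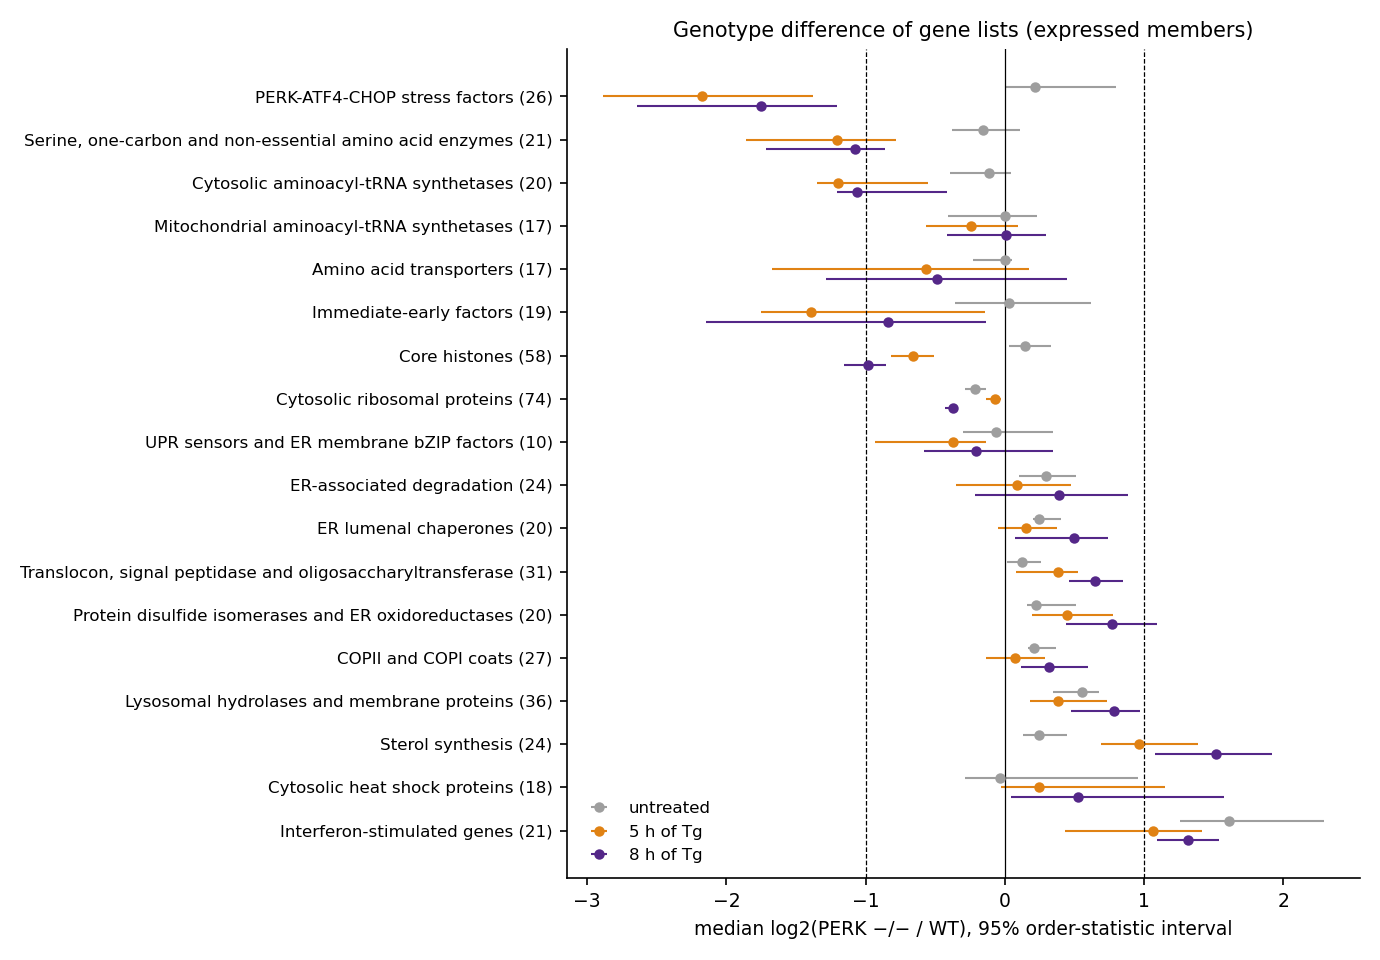
Median log2 ratio of PERK −/− over WT for 18 gene lists in untreated cells (grey), at 5 h (orange) and at 8 h (purple) of Tg, with 95% order-statistic intervals over the expressed members (numbers in brackets), which measure the spread over genes and not over cultures. The stress factors, the amino acid enzymes and the cytosolic synthetases lie to the left late and near 0 untreated, sterol synthesis lies to the right late, and the interferon-stimulated genes lie to the right in all 3.

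Immediate-early factors, which growth and stress signals switch on fast, were often lower. Of 19 expressed members 8 were lower and 1 was higher, beside 3.41% and 4.9% of all genes. The higher one, the phosphatase gene Dusp1, was higher both late and untreated. Myc, the growth-promoting factor, was at 161 TPM in untreated WT, 235 and 225 TPM late, and at 90.4, 35.7 and 40.3 TPM in PERK −/− MEFs. Klf4, Klf10, Klf2, Ier2, Junb and Ier5 were also lower only late, whereas Fosl1 was lower untreated too. Egr1 was at 13.5 and 15.3 against 5.06 and 9.92 TPM and was not called. Outside this list, Vegfa, the angiogenic growth factor, was at 120 and 120 TPM in WT and 28.4 and 23.2 TPM in PERK −/− MEFs. Heme oxygenase Hmox1, also outside it, was at 451 and 507 against 142 and 169 TPM. Neither stands for a wider group.

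Core histone genes took a larger share of WT footprints late. Of 58 expressed genes 14 were lower and none higher, beside 3.41% and 4.9% of all genes. The summed level of the 61 listed genes was 108045 and 112396 TPM in WT against 67358 and 53902 TPM in PERK −/− MEFs, with controls of 47761 and 54980 TPM. Single histone genes are uncertain, since RSEM splits the reads of near-identical copies. Hist1h2bc, for example, was at 4290 and 3929 TPM in WT and at 32.9 and 923 TPM in PERK −/− MEFs. Their median difference was -0.66 at 5 h and -0.98 at 8 h. The median of the mean over both times was -0.88, and -0.40 once the GC trend was removed. Cytosolic ribosomal protein genes differed little, with medians of -0.07 and -0.37 over 74 genes (-0.21 untreated). The 1 called gene, Rpl34, was at 1520 and 1564 against 0 and 19.2 TPM, while its copy Rpl34-ps1 was at 36.1 and 14.1 against 1040 and 767 TPM, and RSEM can split reads between such copies. Summed over both, the level was 1556 and 1578 TPM in WT and 1040 and 786 TPM in PERK −/− MEFs.

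Several of the largest differences were present without stress. Among the lower genes, the BMP antagonist Grem1 was at 362 TPM in untreated WT, 563 and 580 TPM late, and at 31.5, 23.0 and 37.1 TPM in PERK −/− MEFs. The developmental factors Alx1 and Pax3 and the uncoupling protein gene Ucp2 were also lower untreated, with Alx1 at 48.5, 81.3 and 82.5 TPM in WT and 2.62, 0.76 and 1.54 TPM in PERK −/− MEFs. The matrix genes Ctgf (1045 and 1008 against 213 and 119 TPM), Tnc, Lamb1 and Igfbp7 were lower both late and untreated. Among the higher genes, the retinoic acid-binding protein gene Crabp2 was at 332 TPM untreated and 321 and 313 TPM late in PERK −/− MEFs and at 18.4, 27.2 and 28.0 TPM in WT. The water channel gene Aqp1, the neuronal tubulin-binding stathmin Stmn2 and the limb homeobox gene Hoxa10 (late 83.6 and 59.2 TPM against 3.37 and 6.36 TPM in WT) were also higher late and untreated. Of 21 expressed interferon-stimulated genes 10 were higher, beside 4.9% of all genes, and 9 of these 10 were already higher untreated. Isg15, a ubiquitin-like modifier, was at 171 TPM in untreated PERK −/− MEFs against 10.9 TPM in WT, and late at 114 and 99.4 against 32.0 and 40.6 TPM, so that its difference was smaller under stress.

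Genes that were higher only late outside sterol synthesis included the tetraspanin Tspan5, the cyclin Ccng1, the prothymosin relative Ptms and the complex III subunit gene Uqcrh. Tspan5 was at 16.2 and 15.4 TPM in WT and 80.5 and 86.5 TPM in PERK −/− MEFs, with controls of 39.0 and 43.9 TPM. Ccng1, a p53 target, was at 36.1 TPM in untreated WT and 8.90 and 7.68 TPM late, against 49.4, 35.9 and 63.5 TPM in PERK −/− MEFs. Ptms was at 1335, 277 and 264 TPM in WT and 2184, 1244 and 1393 TPM in PERK −/− MEFs. WT lay below its control late for all 3 genes, while PERK −/− MEFs lay above theirs at both times for Tspan5 alone. Uqcrh was at 1129, 225 and 229 TPM against 1042, 902 and 901 TPM. Of 76 genes of oxidative phosphorylation it was the only one higher, and 1 was lower, beside 4.9% and 3.41% of all genes. The phosphatase gene Plpp1 differed in another way, with WT at 52.7, 60.2 and 49.5 TPM and PERK −/− MEFs at 87.0, 235 and 258 TPM.

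NIH3T3 cells gave a view of the same genes in libraries that neither chose them nor share a control with them. Of the 356 lower genes 301 were expressed there, and their median change at 7 h of Tg against control was 0.57 on the log2 scale (95% order-statistic interval over genes 0.41 to 0.67), with 81 at least 2-fold up (26.9%, against 6.52% of all 9367 genes) and 14 at least 2-fold down. Of the 511 higher genes 403 were expressed, with a median of -0.50 (-0.58 to -0.40), 7 up and 100 down (24.8%, against 8.4% of all genes). The median over all 9367 genes was -0.03. Genes lower only late had a median of 0.61 (0.47 to 0.72) and genes lower also untreated of 0.26 (-0.02 to 0.71). Genes higher only late had a median of -0.50 and those higher also untreated of -0.47, which lie within each other's intervals (-0.60 to -0.40 and -0.61 to -0.34). By list, the median log2 change in NIH3T3 cells was 0.77 over 23 genes of the PERK-ATF4-CHOP list, 0.58 over 20 cytosolic synthetases, 0.50 over 21 amino acid enzymes, -0.39 over 23 genes of sterol synthesis and -0.02 over 57 core histones, whose median was lower in late PERK −/− MEFs. Within the PERK-ATF4-CHOP list Ppp1r15a was at 3.42 and Ddit3 at 3.02, while Eif4ebp1 was at -0.07 and Bbc3 at -0.46, although both of these were called lower in PERK −/− MEFs. In sterol synthesis Nsdhl was at -1.43, Dhcr7 at -1.33 and Sc5d at -0.38. The doses and times of the 2 cell types differ, and NIH3T3 cells had 1 library per condition.

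**Figure D5:**
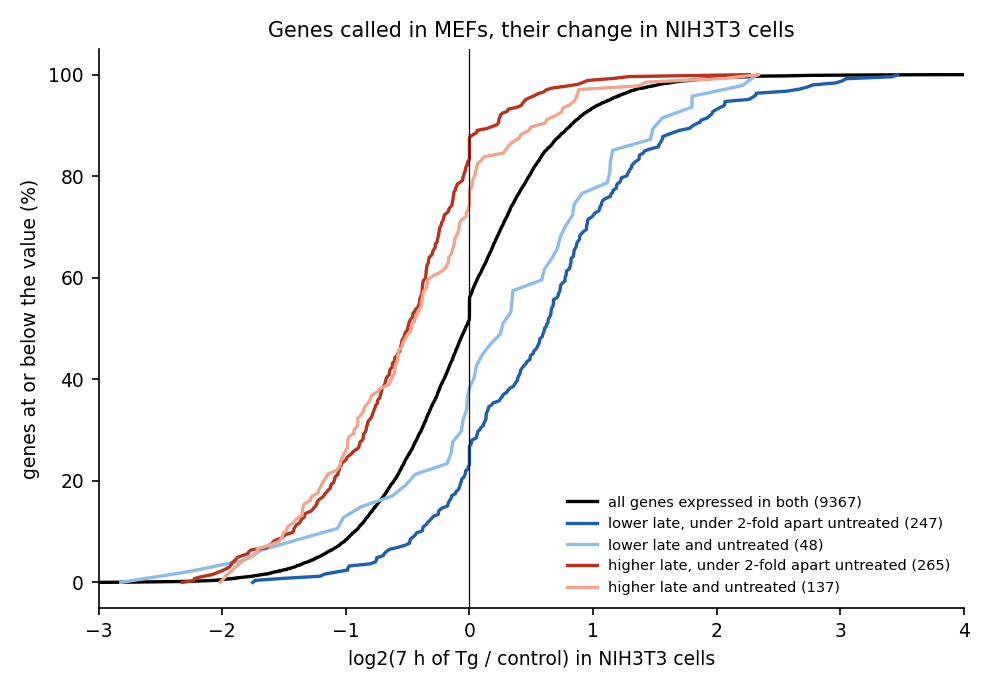
Cumulative share of genes (y axis, percent) by their log2 change at 7 h of Tg against control in NIH3T3 cells (x axis) for all 9367 genes expressed in both cell types (black) and for 4 classes called in MEFs. The curve of genes lower only late (dark blue) lies to the right of all genes, that of genes lower also untreated (light blue) crosses it at the low end, and those of higher genes (red) lie to the left through the middle of the range.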

How the data were processed

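Ribosome footprints were measured in 10 MEF and 3 NIH3T3 libraries, 1 per condition, and all 13 could be assigned from their labels. Footprints of 22 to 34 nt were kept by the authors, who removed polyA tails, filtered rRNA and tRNA reads with STAR, aligned to RefSeq coding sequences of mm10 (each end clipped by 30 nt, transcripts under 100 nt left out) with Bowtie2 and quantified with RSEM. Tool versions are not given in the sources used here. Expected counts per gene are RSEM estimates that the authors deposited as integers without scaling libraries to each other. The TPM values were deposited as RSEM scaled them within each library. TPM are shares of a library, so that a global change of translation does not show in them.

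TPM values under 4 were raised to 4, genes that averaged 2 TPM or more across the MEF libraries were used (Zfp873, at 2.0, was the last inside and Nudt16, at 1.999, the first outside), and PERK −/− was divided by WT at each time. The count interval is the exact conditional (Clopper-Pearson) 95% interval of expected counts per library total and covers counting error only. A count of 0 allows up to 3 counts, which is 0.268 to 0.534 CPM in the 4 late libraries. The code that makes the calls was tested on simulated counts with counting error only, which says nothing of the spread between cultures. For 96.1% of genes a coding sequence was found in the GENCODE annotation of GRCm38, the assembly of mm10, and gene positions and promoters are from RefSeq GRCm38.p6. Spreadsheet dates stood in place of 25 symbols. The tables held no columns of unknown samples.

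Members and gene lists were chosen with earlier results of these data known. Named genes were Eif2ak3, the 15 called genes per direction with the largest difference (the smaller of 5 h and 8 h, at least 100 counts in both late libraries of the higher genotype), the same among genes less than 2-fold apart untreated, called and extreme members of the 40 lists, and the PERK-ATF4-CHOP list with Hspa5 and Xbp1. Shmt1, P4hb, Egr1, Psat1, Slc3a2 and Dnajc3 were named after their values were seen. Some genes are not reported here. Settings varied were the floor (1 TPM), a pseudocount of 1 in its place, the minimum mean (5 TPM, or no minimum), TMM and DESeq2 factors, thinned counts, the count interval, a 3-fold threshold, 1 time alone, removal of a lowess GC trend (fraction 0.3) and, chosen after seeing the data, TPM divided by TMM factors and the mean of both late WT libraries. Python 3.11.15, pandas 2.3.3, scipy 1.17.1, statsmodels 0.14.6, R 4.3.3, edgeR 4.0.16 and DESeq2 1.42.0 were used, the last 2 for scaling factors only.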

Additional observations from a re-analysis of the deposited data

Results flagged for a closer look

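The 1 h WT library, which the late comparison did not use, held reads of genes that mark the PERK −/− line. The 9 genes at least 8-fold higher in PERK −/− MEFs in the control, 2, 5 and 8 h pairs stood in the 1 h WT library at a median of 28.7% of their level in the 1 h PERK −/− library. In the other WT libraries this median was between 2.31% (control) and 3.98% (5 h), which is low by the choice of these genes. The 8 genes that mark the WT line, chosen in the same way, stood at a median of 1.03% in the 1 h PERK −/− library. In the other PERK −/− libraries, low by the choice, it was between 1.27% and 2.63%. Rpl34-ps1 is among the 9 genes and Rpl34 among the 8, and RSEM can split reads between these copies. No call above rests on either 1 h library, and the source of these reads was not tested.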

How the results depend on the processing

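No replicate could be left out with 1 library per condition. All differences were taken within a time, and no fit that takes the times as replicate pairs was run. With a 3-fold threshold 115 genes were lower and 133 higher, 101 of them already different untreated and 145 less than 3-fold apart untreated. At 5 h alone 780 were lower and 891 higher (1293 less than 2-fold apart untreated), and at 8 h alone 586 and 1051 (1216). With a floor of 1 TPM, 518 called genes were already different untreated, against 293. The other 65 values of the counts and NIH3T3 medians stayed within 1.5 times the main count or within the interval of the median. The share of calls that were higher was 58.9%, but 49.5% with TMM factors on counts, 48.4% with DESeq2 size factors and 50.1% with TMM factors on TPM. Of the 356 lower and 511 higher genes, 324 and 389 were also called with TMM factors on counts, and 340 and 475 with the mean of both late WT libraries, where 368 and 522 were called. Over the scalings, floors, times and the GC trend, the list medians (mean of 5 h and 8 h, or 1 time) ranged from -2.26 to -1.71 for the PERK-ATF4-CHOP list, -1.20 to -1.08 for amino acid enzymes, -1.22 to -1.06 for cytosolic synthetases, 0.97 to 1.52 for sterol synthesis and -0.98 to -0.40 for core histones. Among the 75 named genes, 4 of 893 values under alternatives had the opposite sign, 2 for Eif2ak3 (-1.13 and -1.14 from counts, 0.11 from TPM) and 2 for Trib1. For 97 called genes the differences of TPM and of counts were more than 2-fold apart at 5 h or 8 h.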

Other observations

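The 2 late times disagreed for 13 genes, of which 9 were at least 2-fold lower in PERK −/− MEFs at 5 h and at least 2-fold higher at 8 h, and 4 the reverse. The inducible heat shock gene Hspa1a was at 10.4 TPM in WT at both times and at 1.76 and 31.1 TPM in PERK −/− MEFs, while its near copy Hspa1b was at 41.3 and 52.2 TPM in WT and at 141 and 165 TPM in PERK −/− MEFs. Smim7, a small membrane protein gene, was at 50.2 and 44.3 TPM in WT and at 23.6 and 130 TPM in PERK −/− MEFs. Ccdc167 was at 24.9 and 21.3 TPM in WT and at 6.52 and 47.2 TPM in PERK −/− MEFs. The BH3-only gene Bcl2l11 was at 12.9 and 7.84 TPM in WT and at 5.66 and 16.1 TPM in PERK −/− MEFs. These genes were named after their values were seen.

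Of 18 expressed cytosolic heat shock genes 5 were higher in late PERK −/− MEFs and none was lower, beside 4.9% and 3.41% of all genes. The small heat shock genes Hspb8 (77.2 and 65.1 against 12.5 and 14.99 TPM) and Cryab (54.4 and 58.2 against 10.9 and 15.8 TPM) were higher untreated too, with controls of 55.4 and 29.5 against 6.32 and 4.76 TPM. Hspa4l (79.3 and 74.8 against 24.1 and 24.2 TPM) and Dnajb4 (87.6 and 83.1 against 39.4 and 36.4 TPM) were higher only late.

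The calls in the other lists stand beside 3.41% lower and 4.9% higher of all expressed genes. Of 18 expressed collagen chains 4 were lower and 2 higher, of 38 secreted matrix genes 6 and 2, of 29 integrins and growth factor receptors 0 and 4, and of 23 actin and myofibroblast genes 2 and 1. Of 26 cytokines and chemokines 5 were lower and 2 higher, of 24 NRF2 and antioxidant genes 2 and 3, of 15 p53 targets 2 and 3, and of 22 cyclins, CDKs and CDK inhibitors 3 and 2. Of 14 expressed Hox genes 2 were lower and 5 higher, and of 13 imprinted genes 3 and 0. Of 36 proteasome genes 1 was higher, of 19 licensing genes 1 was lower, and none of 18 mitotic genes and 7 linker histones was called. Among markers of other cells, 1 of 3 expressed epithelial markers and 1 of 2 neural markers were higher, the other neural marker was lower, and the 1 expressed muscle marker was not called. Of the 12 fibroblast markers 1 was higher.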
